A study of Mus musculus with 9 samples.

Results

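The core and linker histone genes of the mouse were followed through 40 of the 45101 probe sets of an expression array, hybridised with RNA from thymic iNKT (invariant natural killer T) cells. A probe set is a group of short DNA probes that reads 1 transcript, or several alike ones. A probe set was taken when the symbol listed for it ahead of any other belonged to an H1, H2A, H2B, H3 or H4 gene (symbols starting with Hist1h to Hist4h, H1f, H2ac, H2bc, H2az, H2af, H2bu, H3c, H3f, H4c or H4f), and H2ax was left out. Of the 40 probe sets, 24 name 1 gene and 16 name several, and together they name 55 genes. By kind, 29 probe sets read replication-dependent histone genes, 7 read variant histones (H1f10, H2az1, H2az2, H3f3a and H3f3b) and 4 read linker histones of germ cells (H1f6, H1f7 and H1f8).

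The study compared iNKT cells of Utx wildtype mice (5 arrays, WT1 to WT5) with those of Utx knockout mice (4 arrays, KO1 to KO4), all from thymus, the animals being 8 to 12 weeks old and matched for sex and age. Utx, the product of Kdm6a, is a demethylase of lysine 27 on histone H3, and iNKT cells are T cells whose nearly invariant receptor recognises lipids on CD1d. The sources used here do not give the deleted part of the gene, any Cre driver, the sort gate or the number of animals per array. The labels call the arrays biological replicates and assign them to 3 batches: WT1 and KO1 are batch 1, WT2 with KO2, KO3 and KO4 are batch 2, and WT3 to WT5 are batch 3. Nothing names the animals behind each array, so the p-values measure only the spread between these samples, which may be technical.

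Histones package DNA into nucleosomes, whose core is built of H2A, H2B, H3 and H4 and on which the linker histone H1 sits. Replication-dependent histone genes lie in clusters, have no introns, and are transcribed in S phase to supply new chromatin. Their mRNAs mostly, but not always, end in a stem-loop bound by Slbp instead of a poly(A) tail. Npat activates their transcription at the start of S phase. Which form of mRNA each probe set read was not measured here. Variant histones such as H2A.Z (H2az1, H2az2) and H3.3 (H3f3a, H3f3b) come from single genes with polyadenylated mRNAs that are made outside S phase as well. In the thymus, dividing precursors carry much replication-dependent histone mRNA, while most mature thymocytes rest.

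The promoters of 4 of these genes are shown: H1f2, a linker histone gene with 2 called probe sets of its own, H2bc8, an H2B gene read only by probe sets shared with H2bc6 and H2bc4 (1 of 3 called), the variant H2az2, which was called, and the variant H3f3b, which was not. Each is the stretch of 200 bases ahead of the transcription start, from RefSeq on build GRCm38.p6, in the direction of the gene. H1f2 lies at chr13:23738607-23738806 on the plus strand, H2bc8 at chr13:23571200-23571399 on the plus strand, H2az2 at chr11:6444444-6444643 on the minus strand and H3f3b at chr11:116024505-116024704 on the minus strand. Capitals mark 4 motifs on either strand: the CCAAT box (CCAAT, or ATTGG on the other strand), the TATA box (TATAAA), the octamer of H2B promoters (ATTTGCAT, or ATGCAAAT on the other strand) and the H1 box (AAACACA).
H1f2: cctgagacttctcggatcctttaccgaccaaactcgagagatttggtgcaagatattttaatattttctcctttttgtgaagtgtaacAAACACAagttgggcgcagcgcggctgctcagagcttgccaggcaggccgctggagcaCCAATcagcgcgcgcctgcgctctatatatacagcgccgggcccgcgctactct
H2bc8: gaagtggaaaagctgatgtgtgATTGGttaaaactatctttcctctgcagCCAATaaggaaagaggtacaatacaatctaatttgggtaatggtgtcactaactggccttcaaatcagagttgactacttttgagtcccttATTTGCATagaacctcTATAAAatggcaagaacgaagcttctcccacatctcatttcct
H2az2: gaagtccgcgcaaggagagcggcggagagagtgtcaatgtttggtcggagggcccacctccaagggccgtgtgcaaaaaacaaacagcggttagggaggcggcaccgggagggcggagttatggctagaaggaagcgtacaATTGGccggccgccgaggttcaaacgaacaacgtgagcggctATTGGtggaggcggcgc
H3f3b: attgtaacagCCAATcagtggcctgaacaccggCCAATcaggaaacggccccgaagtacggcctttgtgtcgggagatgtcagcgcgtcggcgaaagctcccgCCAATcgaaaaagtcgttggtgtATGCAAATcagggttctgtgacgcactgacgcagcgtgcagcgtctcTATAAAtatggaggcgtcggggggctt
The H1f2 promoter holds an H1 box 112 to 106 bases and a CCAAT box 54 to 50 bases ahead of the start. That of H2bc8 holds 2 CCAAT boxes, an octamer 59 to 52 bases and a TATA box 43 to 38 bases ahead of the start, and it is shared with H2ac8, whose start lies 180 bases away on the opposite strand. The promoter of H2az2 has 2 CCAAT boxes and none of the other 3 motifs, and that of H3f3b has 3 CCAAT boxes, an octamer and a TATA box.

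Among the 55 genes, 49 have a promoter in the RefSeq table (windows of 250 bases ahead of and 50 bases after the start). In each window only the 200 bases ahead of the start were searched for motifs. Of 41 replication-dependent genes, 30 (73.2%) hold a CCAAT box there, against 29.3% of all 32851 windows searched in this way. The H2A and H2B genes hold it in 12 of 12 and 5 of 5 windows, and the H4 genes in 3 of 12. A TATA box stands in 16 of the 41 windows (39.0%), against 9.96% of all windows. The octamer stands in 4 of 12 H2A, 2 of 5 H2B and in none of the 10 H3 and 12 H4 windows, against 1.38% of all. The H1 box stands in both H1 windows, against 4.8% of all, and in 4 of 5 variant promoters there is a CCAAT box. These matches describe the letters in the windows and are not measured sites of any factor.

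Before the results, the state of the arrays bears on all of them. Array medians lay between 5.97 and 6.09 (log2), and interquartile ranges between 3.45 and 3.84 in wildtype and between 3.80 and 4.29 in knockout arrays. Of 4 Kdm6a probe sets none was called (differences -0.46 to 0.52, adjusted p 0.133 to 0.976), and with the deleted part unknown they do not check the labels. Across probe sets, the deviations of WT1 and KO1 from their group means correlated at r = -0.91, and those of WT2 and the mean of KO2, KO3 and KO4 at r = -0.90. RMA with quantile normalization over all arrays would make the interquartile ranges nearly equal, so these values do not match that step alone. The sources used here do not say whether the values were adjusted for batch before deposit. In that case the SEs and p-values of a fit with batch as a factor may be off, which was not tested.

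Many histone mRNAs were higher and none was called lower in Utx knockout iNKT cells, with H2B, H1f2, H4 and H3 probe sets and the variant H2az2 among those that rose. Of the 33 histone probe sets whose mean level passed the filter (above 4.54 on the log2 scale, the 25th percentile of all probe sets), 14 (42.4%) were higher and 0 were lower in knockout cells at limma's adjusted p of 0.05, where 5.33% of all 33789 tested probe sets were higher and 3.17% lower. Of the 33, 22 had an unadjusted p under 0.05, all of them higher. The differences, knockout minus wildtype, had a median of 0.82 (log2) over these probe sets and 0.06 over all tested, and 31 of the 33 were positive. In bulk samples, more cells that make a histone mRNA and more of that mRNA per cell cannot be told apart.

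Counted without any filter or model, all 4 knockout arrays stood above all 5 wildtype arrays on 27 of the 40 histone probe sets (67.5%), against 15.7% of all probe sets. The reverse order, all knockout arrays below all wildtype arrays, occurred on 0 of the 40, against 16.4% of all. Among the probe sets past the filter the count was 23 of 33, against 18.7%, and among those under it 4 of 7, against 6.8%. The 23 comprise all 14 called probe sets and 9 that were not called. The plot of levels on each array shows which probe sets these are.

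**Figure D1:**
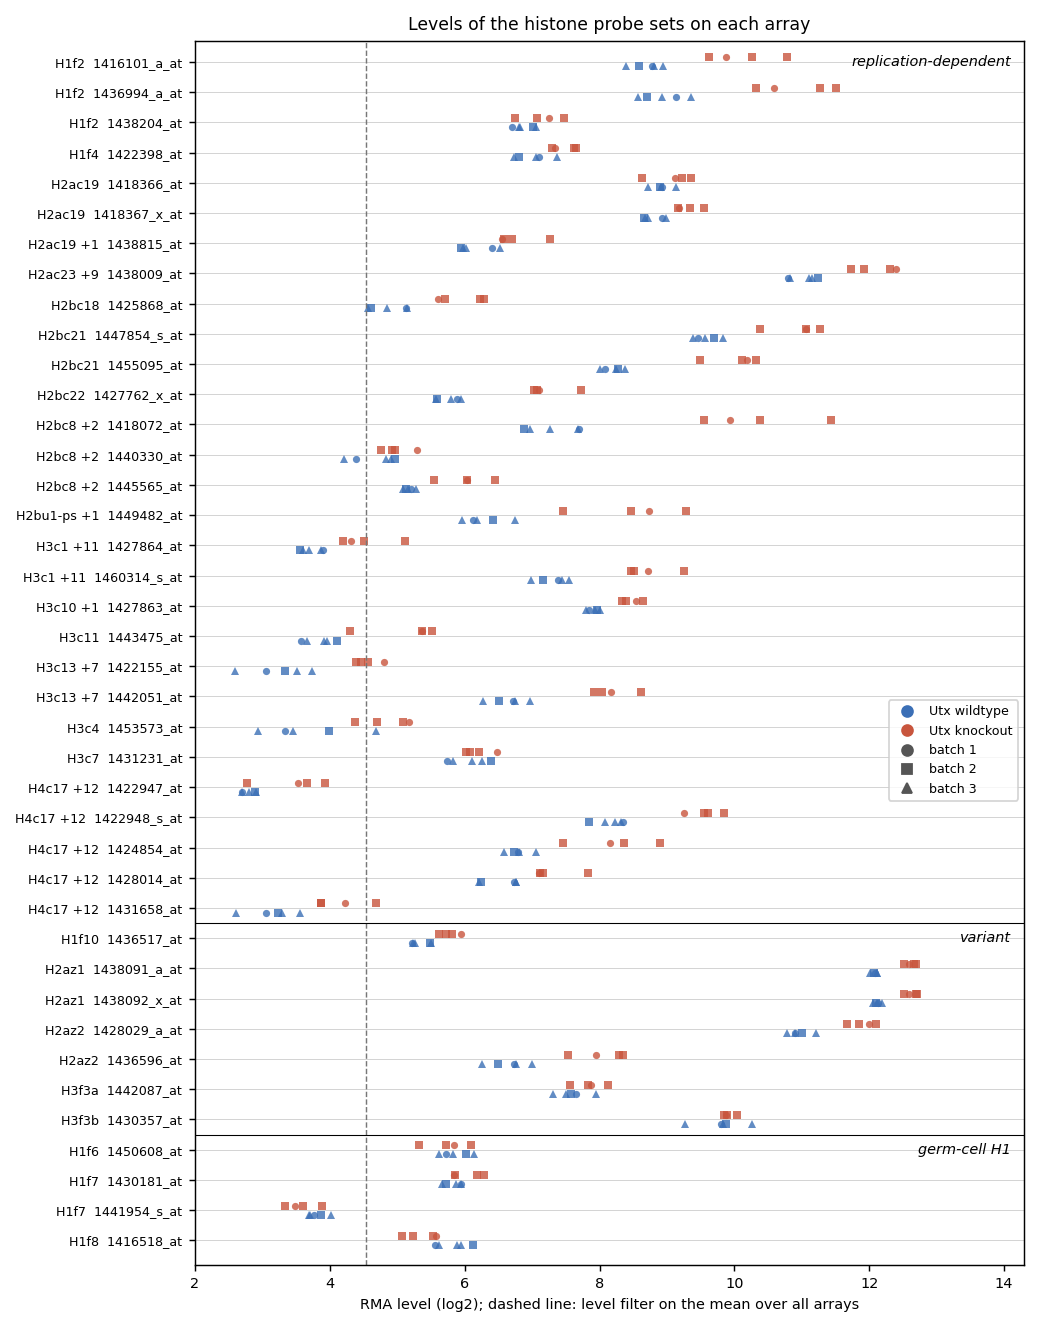
RMA level (log2, horizontal axis) of each of the 40 histone probe sets (rows, with the symbol listed first and the number of further genes) on each of the 9 arrays, wildtype in blue and knockout in red, with the marker shape giving the batch and the dashed line the filter level of 4.54. On 27 rows every red marker lies to the right of every blue one, and on no row does the reverse hold.

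The linker histone gene H1f2, whose product H1.2 binds the DNA between nucleosomes, rose on 2 of its 3 probe sets. Probe set 1436994_a_at read 9.13, 8.70, 9.35, 8.93 and 8.57 on WT1 to WT5 and 10.59, 10.32, 11.27 and 11.51 on KO1 to KO4. All knockout arrays lay above all wildtype arrays, with KO2 the lowest and KO4 the highest of them. The group means were 8.94 ± 0.31 (log2, mean ± SD, n = 5) and 10.92 ± 0.56 (n = 4), and the level was 3.96-fold higher in knockout cells (log2 difference 1.98, SE 0.38, adjusted p = 0.0186 by limma). Probe set 1416101_a_at read 8.77, 8.58, 8.94, 8.80 and 8.39 on WT1 to WT5 and 9.88, 9.62, 10.27 and 10.78 on KO1 to KO4. Again no arrays of the groups overlapped (log2 difference 1.43, SE 0.33, adjusted p = 0.0333). The remaining probe set of H1f2, 1438204_at, had a difference of 0.27 (adjusted p = 0.471), so the probe sets of this gene did not agree in size. H1f4, another replication-dependent linker histone, had 0.52 (adjusted p = 0.175). Without WT2 both H1f2 calls ended (1.46, adjusted p = 0.247, and 1.11, adjusted p = 0.357), and that of 1416101_a_at also ended without WT3, WT4 or KO3.

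Of the H2A genes, 1 of 4 replication-dependent probe sets rose. Probe set 1438009_at, which names 10 H2A genes (among them H2ac8, the neighbour of H2bc8), read 10.80, 11.25, 10.82, 11.14 and 11.10 on WT1 to WT5 and 12.40, 11.93, 11.73 and 12.30 on KO1 to KO4. The groups did not overlap, and KO3 at 11.73 lay nearest to the highest wildtype array, WT2. The rise was 2.12-fold (log2 difference 1.09, SE 0.25, adjusted p = 0.0359), made up of 1.61 in batch 1 and 0.74 in batch 2, and the call ended when WT1, WT3, WT4, WT5, KO1 or KO4 was left out (0.74 to 1.61 over the 9 fits, adjusted p up to 0.113). It ended as well after scaling each array to a common median and interquartile range. H2ac19, an H2A gene of the Hist2 cluster, had differences of 0.18 and 0.52 on probe sets of its own (adjusted p = 0.658 and 0.125), and 0.60 on 1 shared with H2ac18 (adjusted p = 0.192).

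Of the H2B genes, 5 of 8 probe sets rose, with differences over all 8 from 0.31 to 3.04. H2bc21, an H2B gene of the Hist2 cluster, was read by probe set 1455095_at at 8.09, 8.28, 8.01, 8.38 and 8.25 on WT1 to WT5 and 10.18, 9.49, 10.11 and 10.32 on KO1 to KO4. The knockout arrays lay at least 1 log2 unit above every wildtype array, KO2 being the lowest of them. Its means were 8.20 ± 0.15 (log2, mean ± SD, n = 5) and 10.02 ± 0.37 (n = 4), a 3.62-fold rise (log2 difference 1.86, SE 0.26, adjusted p = 0.00703 by limma), and it was the histone probe set with the smallest p. It was also the 1 member of the 14 whose call held in all 9 fits that left out an array (1.70 to 2.10, adjusted p up to 0.0306). The other probe set of H2bc21, 1447854_s_at, read 9.46, 9.69, 9.38, 9.83 and 9.56 on WT1 to WT5 and 11.07, 10.38, 11.07 and 11.27 on KO1 to KO4. It too showed no overlap (log2 difference 1.37, SE 0.27, adjusted p = 0.0213), but its call ended without WT1, WT2, KO1 or KO3 (adjusted p up to 0.0846).

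The histone probe set with the largest difference was 1418072_at, which names the Hist1 genes H2bc8, H2bc6 and H2bc4. It read 7.70, 6.89, 7.27, 7.68 and 6.97 on WT1 to WT5 and 9.94, 9.54, 10.39 and 11.43 on KO1 to KO4. Every knockout array exceeded every wildtype array, and the knockout arrays themselves spread from 9.54 on KO2 to 11.43 on KO4. The means were 7.30 ± 0.38 (log2, mean ± SD, n = 5) and 10.33 ± 0.81 (n = 4), 8.21-fold higher (log2 difference 3.04, SE 0.51, adjusted p = 0.0125). The same 3 genes are named by 1445565_at, with a difference of 0.86 (adjusted p = 0.0636), and by 1440330_at, with 0.31 (adjusted p = 0.489). Probe sets for the same genes thus gave differences from 0.31 to 3.04. The call of 1418072_at ended without WT2 (2.24, adjusted p = 0.159) and in no other fit that left out an array.

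H2bc22, an H2B gene of the Hist1 cluster, was read by 1427762_x_at at 5.88, 5.59, 5.58, 5.80 and 5.94 on WT1 to WT5 and 7.10, 7.02, 7.07 and 7.72 on KO1 to KO4. The groups did not overlap, and KO4 stood apart from the other 3 knockout arrays (log2 difference 1.496, SE 0.25, adjusted p = 0.0123). Probe set 1449482_at, named for H2bu2 and the pseudogene H2bu1-ps of the Hist3 cluster, read 6.13, 6.43, 6.19, 6.75 and 5.96 on WT1 to WT5 and 8.74, 7.46, 8.47 and 9.28 on KO1 to KO4. KO2 was again the lowest knockout array but above every wildtype array (4.69-fold, log2 difference 2.23, SE 0.46, adjusted p = 0.0248). H2bc18 had a difference of 1.07 and was not called (adjusted p = 0.0535). Leaving out WT2 ended the call of H2bc22 (1.22, adjusted p = 0.14), and leaving out WT1, WT2, KO1 or KO3 ended that of 1449482_at (adjusted p up to 0.0965).

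H3 mRNAs of the replication-dependent genes encode the canonical forms H3.1 and H3.2, and 2 of their 4 tested probe sets rose. Both read many genes at once. Probe set 1442051_at, which names 8 H3 genes, read 6.71, 6.51, 6.74, 6.27 and 6.97 on WT1 to WT5 and 8.17, 8.04, 8.61 and 7.91 on KO1 to KO4. No knockout array overlapped the wildtype arrays (3.01-fold, log2 difference 1.59, SE 0.27, adjusted p = 0.013). Probe set 1460314_s_at, which names 12 H3 genes, read 7.38, 7.16, 6.98, 7.44 and 7.55 on WT1 to WT5 and 8.72, 8.51, 8.46 and 9.25 on KO1 to KO4. This rose too, with KO4 the highest array and KO1 next (2.8-fold, log2 difference 1.49, SE 0.28, adjusted p = 0.0173). H3c10 and H3c2 are read together by 1427863_at, at 7.84, 7.96, 7.80, 7.93 and 8.01 on WT1 to WT5 and 8.54, 8.39, 8.34 and 8.65 on KO1 to KO4. All knockout arrays lay above all wildtype arrays here too, but the difference of 0.58 (SE 0.17) was not called (adjusted p = 0.0722). H3c7 alone had 0.12 (adjusted p = 0.776). For H3c7 the batches differed in sign, with 0.74 in batch 1 and -0.29 in batch 2. Both H3 calls ended without WT2 (1.45, adjusted p = 0.117, and 1.33, adjusted p = 0.163). The other 4 H3 probe sets lay under the filter, and on 3 of them, those naming 8 genes, 12 genes and H3c11, all knockout arrays were above all wildtype arrays.

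H4, which pairs with H3 in the nucleosome core, is read here only by probe sets that name the same 13 genes, whose proteins are nearly identical. Probe set 1422948_s_at read 8.34, 7.84, 8.32, 8.08 and 8.22 on WT1 to WT5 and 9.26, 9.54, 9.61 and 9.84 on KO1 to KO4. Each knockout array stood above each wildtype array, and WT2 was the lowest array (2.76-fold, log2 difference 1.46, SE 0.23, adjusted p = 0.0102). Without WT2 the difference was 0.91 and the call ended (adjusted p = 0.133). Of the other 2 tested H4 probe sets, 1424854_at rose (1.45, adjusted p = 0.0427, a call kept in 1 of the 9 fits that left out an array, that without KO2), and 1428014_at had 0.82 (adjusted p = 0.106). The former lies outside the rule for named probe sets and is given because it completes the 14.

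Under the filter lay 6 replication-dependent probe sets and 1 of H1f7. Fitted without a filter they had differences of -0.28 (H1f7) and 0.68 to 1.38, and 1422155_at, which names 8 H3 genes, was called (1.38, adjusted p = 0.0412). The remaining 6 had adjusted p of 0.0636 to 0.396. It was not measured whether their signal in wildtype cells exceeds background.

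Of the variant histones, H2az2 passed the test and the other 4 genes did not. H2az2 encodes H2A.Z.2, a form of H2A.Z, which marks promoters and enhancers. Probe set 1428029_a_at read 10.90, 10.999, 10.89, 11.21 and 10.78 on WT1 to WT5 and 12.001, 11.68, 11.85 and 12.10 on KO1 to KO4. Probe set 1436596_at read 6.74, 6.50, 6.26, 6.996 and 6.76 on WT1 to WT5 and 7.94, 7.53, 8.29 and 8.35 on KO1 to KO4. On both, all knockout arrays were above all wildtype arrays (1.95-fold, log2 difference 0.96, SE 0.20, adjusted p = 0.0254, and 2.67-fold, log2 difference 1.42, SE 0.30, adjusted p = 0.0261). The call of 1428029_a_at ended without WT1, WT2, KO1, KO3 or KO4 (0.88 to 1.10, adjusted p up to 0.115) and after scaling to a common interquartile range, and that of 1436596_at without WT2, KO3 or KO4 (1.20 to 1.56, adjusted p up to 0.259).

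H2az1 encodes H2A.Z.1 and had no call. Probe set 1438091_a_at read 12.08, 12.08, 12.12, 12.11 and 12.004 on WT1 to WT5 and 12.59, 12.51, 12.70 and 12.66 on KO1 to KO4. Probe set 1438092_x_at read 12.13, 12.10, 12.18, 12.11 and 12.05 on WT1 to WT5 and 12.59, 12.52, 12.71 and 12.69 on KO1 to KO4. The arrays of the groups did not overlap on either, but the separation was small, with differences of 0.53 and 0.51 (SE 0.16 on both, adjusted p = 0.0695 and 0.08, 95% intervals, not adjusted for the number of probe sets, 0.17 to 0.89 and 0.14 to 0.87). Scaled to a common median and interquartile range, they turned to -0.11 and -0.14 (adjusted p = 0.793 and 0.725).

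H3.3, the replacement form of H3 laid down outside replication, is encoded by H3f3a and H3f3b. H3f3b, on 1430357_at, read 9.81, 9.87, 10.25, 9.82 and 9.27 on WT1 to WT5 and 9.88, 10.04, 9.89 and 9.84 on KO1 to KO4. The groups overlapped wholly, the knockout arrays lying between the lowest and highest wildtype array (log2 difference 0.06, SE 0.26, adjusted p = 0.897, 95% interval -0.53 to 0.66). Its sign turned with a block for replicate number (-0.025), another quantile normalization (-0.18) and scaling to a common interquartile range (-0.31). H3f3a, on 1442087_at, read 7.65, 7.57, 7.31, 7.51 and 7.95 on WT1 to WT5 and 7.88, 8.13, 7.56 and 7.83 on KO1 to KO4. These groups overlapped too (log2 difference 0.25, SE 0.24, adjusted p = 0.508, 95% interval -0.29 to 0.79). H1f10, a linker histone variant, was read by 1436517_at at 5.22, 5.49, 5.27, 5.50 and 5.23 on WT1 to WT5 and 5.95, 5.62, 5.72 and 5.81 on KO1 to KO4. All its knockout arrays were above the wildtype arrays, with a difference of 0.43 (SE 0.19, adjusted p = 0.167).

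The linker histones of germ cells, H1f6 and H1f7 of the testis and H1f8 of the oocyte, are not known to be made in T cells. None of their 3 tested probe sets was called: the differences were -0.14 for H1f6, 0.19 for H1f7 and -0.51 for H1f8 (adjusted p 0.198 to 0.745). On all 4 of their probe sets the groups overlapped.

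**Figure D2:**
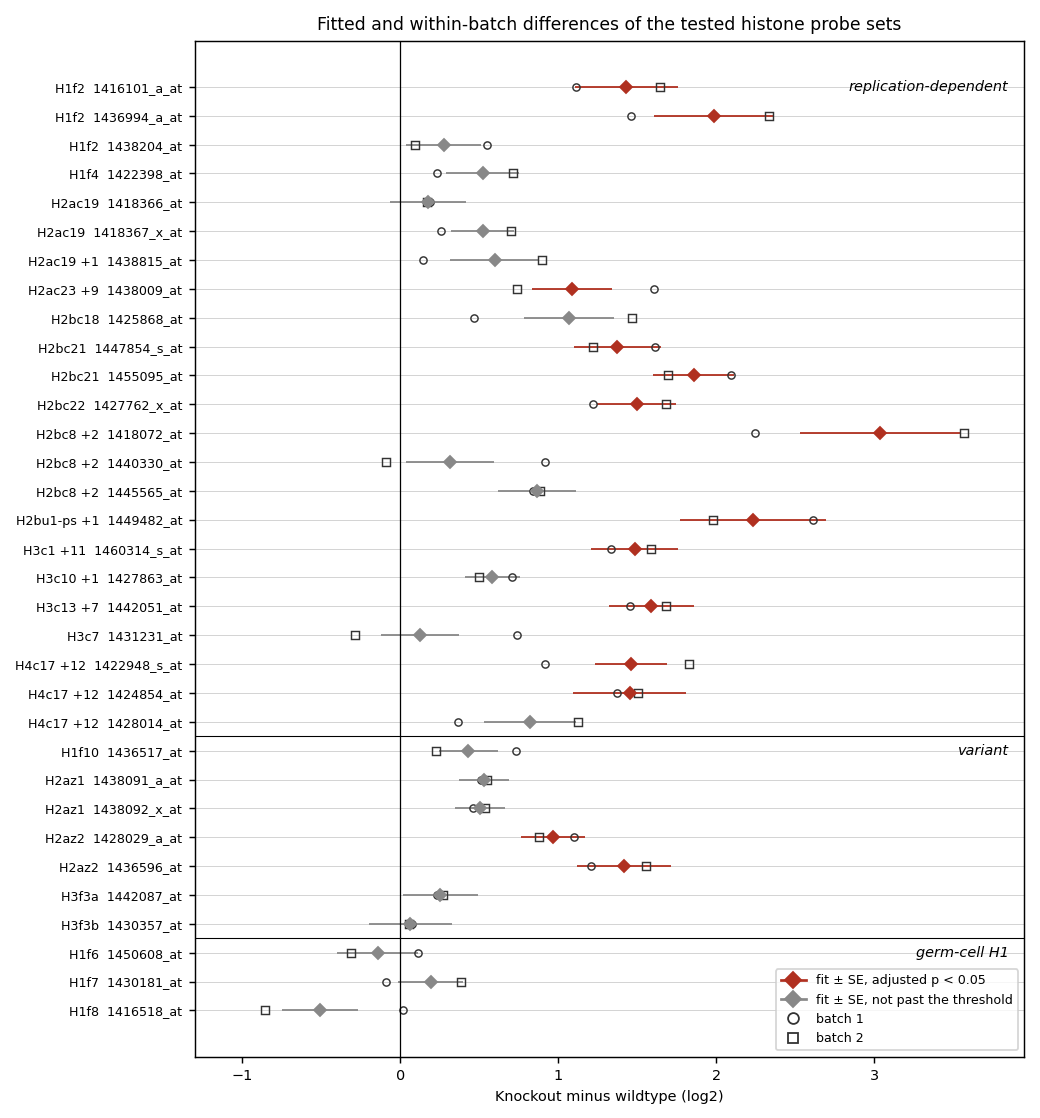
Difference between knockout and wildtype (log2, horizontal axis) for each of the 33 tested histone probe sets: diamonds give the fitted value with its SE, red where limma's adjusted p is under 0.05, and open circles and squares give the values within batch 1 and batch 2. The 14 red diamonds run from 0.96 to 3.04, and 2 rows, H1f6 and H1f8, have a fitted value below 0.

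Set side by side, 12 of 23 tested replication-dependent probe sets (52.2%) and 2 of 7 variant probe sets (28.6%) were higher. The share over all tested probe sets was 5.33%. Both variant probe sets that were called belong to 1 gene, H2az2. The median difference was 1.09 (log2, 0.12 to 3.04) for the replication-dependent kind and 0.51 (0.06 to 1.42) for the variants. Over all tested probe sets it was 0.06. No test compares the kinds, since probe sets are not replicates and many share genes. All 23 replication-dependent differences were positive as reported, and 21 of 23 without the batch 1 pair, that is in batch 2 alone. After another quantile normalization or after scaling to a common interquartile range 22 of 23 were positive. The latter 2 changes moved the median of all tested probe sets to -0.01 and to -0.06. With that scaling the median of the replication-dependent probe sets was 0.95 and that of the variants 0.12. By family the median difference was 0.98 for H1 (2 of 4 called), 0.56 for H2A (1 of 4), 1.43 for H2B (5 of 8), 1.03 for H3 (2 of 4) and 1.45 for H4 (2 of 3).

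Probe sets that name several genes are all of the replication-dependent kind. Of the 12 tested, 7 were called higher (58.3%, against 5.33% of all tested probe sets), with a median difference of 1.27. Of the 11 tested replication-dependent probe sets that name 1 gene, 5 were called, with a median of 1.07, and these 5 belong to H1f2, H2bc21 and H2bc22. The rises read by shared probe sets cannot be assigned to 1 gene of the family.

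KO2 and KO4 most often lay at the ends of the knockout range. KO2 was the lowest knockout array on 17 of the 29 replication-dependent probe sets and on 10 of the 14 called, and KO4 was the highest on 19 of 29 and on 12 of 14. The median member of the replication-dependent kind stood 1.10 (log2) above the wildtype mean on KO1, 0.80 on KO2, 1.16 on KO3 and 1.30 on KO4, while the wildtype arrays lay between -0.09 and 0.12. For the variants these medians were 0.51, 0.44, 0.59 and 0.57. The S phase genes, a list of replication genes, stood at 0.94, 0.70, 0.91 and 1.11 on the same arrays, and the G2 and M phase genes at 2.10, 1.64, 1.83 and 1.93, so KO2 was the lowest knockout array for each of these lists. For the germ-cell linker histones the 4 knockout arrays ranged from -0.51 to 0.15.

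**Figure D3:**
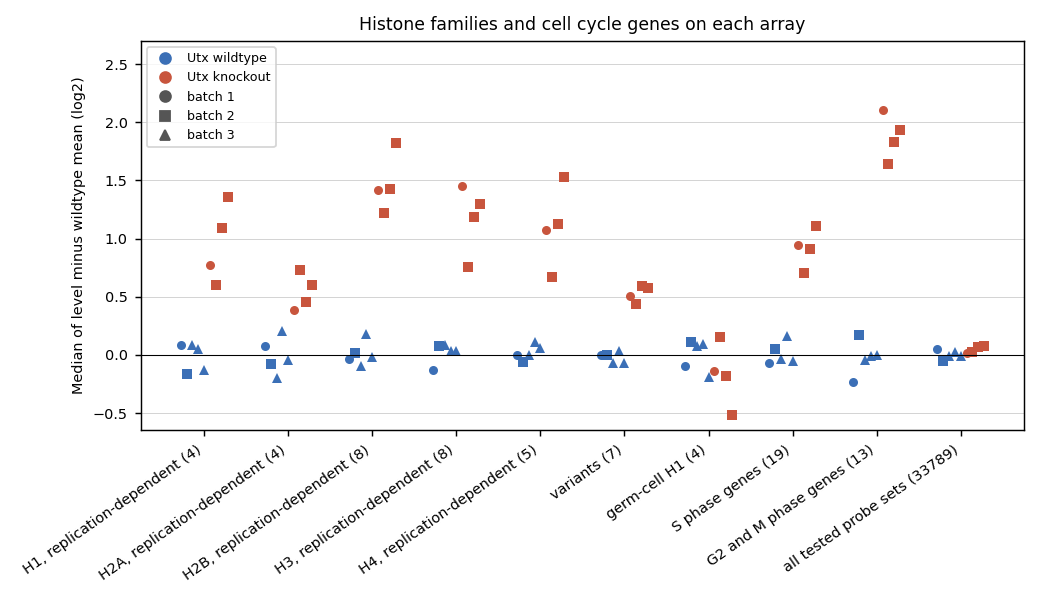
Median over each gene group of level minus wildtype mean (log2, vertical axis) on each of the 9 arrays, wildtype in blue and knockout in red, marker shape giving the batch and the number of probe sets in brackets. All 4 knockout arrays lie above the wildtype arrays for the replication-dependent families and the variants, as for the S phase and the G2 and M phase genes, and KO2 is the lowest knockout array for the H1, H2B, H3 and H4 families.

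Batch 1 (1 array each) and batch 2 (1 wildtype and 3 knockout arrays) hold both genotypes. Over all 29 replication-dependent probe sets, those under the filter included, the median difference was 1.11 in batch 1 and 1.05 in batch 2. Over the 23 tested it was 0.92 in batch 1 and 1.22 in batch 2. For the variants it was 0.51 and 0.54. Batch 3 holds wildtype arrays only and gives no difference. In a test of whether the difference varied between the batches, 0 of the 33 histone probe sets were called by limma (lowest adjusted p 0.348), and 2, H3c7 (unadjusted p = 0.027) and the H4 probe set 1422948_s_at (unadjusted p = 0.0359), had an unadjusted p under 0.05. Over all probe sets that test called 0.0207%, with 4268 at an unadjusted p under 0.05.

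On the histone supply list, only general cell cycle genes were called higher. The list of 17 genes joins factors for the transcription and processing of histone mRNA with such cell cycle genes. Each was read by its probe set of highest level, and 4 were higher and 0 lower. Of all 14524 genes read this way, 6.7% were higher and 2.78% lower. The 4 were Cdk2 (1.06, adjusted p = 0.0246), the kinase that phosphorylates Npat, its partner cyclin gene Ccne2 (1.74, adjusted p = 0.0161), the replication licensing inhibitor Gmnn (1.30, adjusted p = 0.00999) and the transcription factor gene E2f1 (1.69, adjusted p = 0.0302), all log2 differences by limma. These 4 are general cell cycle genes, and none of the other genes on the list was called. Slbp, the stem-loop binding protein, read 11.80, 11.93, 11.88, 11.78 and 11.98 on WT1 to WT5 and 12.24, 12.14, 12.18 and 12.14 on KO1 to KO4. Its groups did not overlap, but the difference of 0.31 was not called (adjusted p = 0.225), nor was that of Npat (0.52, adjusted p = 0.128). Eri1, an exonuclease of the histone stem-loop, had 0.53 (adjusted p = 0.106). All 17 differences were positive, with a median of 0.53 against 0.11 over all genes read this way. Without WT2 1 of the 17 was called, and without WT1 or KO1 2.

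Of 24 histone chaperones and exchange factors, 21 had a probe set of their own, and each was read by that of highest level. Among them 4 were higher and 0 lower, where 6.7% of all 14524 genes read this way were higher and 2.78% lower. Their differences were positive for 18, with a median of 0.28 against 0.11 over all genes read this way. The 4 that rose were Chaf1b, the p60 subunit of the CAF-1 complex (1.38, adjusted p = 0.006), Asf1b (1.52, adjusted p = 0.00626), a carrier of H3 and H4, Nasp, which keeps the pool of free H3 and H4 (0.79, adjusted p = 0.0254), and Asf1a, the paralog of Asf1b (0.64, adjusted p = 0.0497). Other genes that handle new H3 and H4 were not called: Ipo4 had 0.96 (adjusted p = 0.228), Hat1 0.28 (adjusted p = 0.323), Rbbp7 0.25 (adjusted p = 0.302) and Rbbp4, also part of CAF-1, 0.20 (adjusted p = 0.449). Asf1b read 9.83, 10.06, 9.89, 10.10 and 9.999 on WT1 to WT5 and 11.58, 11.23, 11.33 and 11.75 on KO1 to KO4. Chaf1b read 8.07, 7.88, 7.90, 8.23 and 7.86 on WT1 to WT5 and 9.31, 9.33, 9.31 and 9.44 on KO1 to KO4. On neither gene did the groups overlap. The knockout arrays were close together for Chaf1b (SD 0.06) and spread more widely than the wildtype arrays for Asf1b (SD 0.23 against 0.11). Factors for H3.3 had no call: Hira had 0.46 (adjusted p = 0.17), Daxx -0.04 (adjusted p = 0.897) and Atrx 0.21 (adjusted p = 0.53). Of the H2A.Z exchange factors, Srcap had 1.33 (adjusted p = 0.0621), Anp32e 0.47 (adjusted p = 0.149) and Ep400 0.45 (adjusted p = 0.111). Without WT2 1 of the 21 was called, and without WT5, KO3 or KO4 2.

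Histone variants that the name rule leaves out were read in the same fit. H2ax, the variant phosphorylated at DNA breaks, whose gene yields both stem-loop and polyadenylated mRNA, read 8.39, 8.44, 8.24, 8.72 and 8.40 on WT1 to WT5 and 10.43, 9.54, 10.35 and 10.84 on KO1 to KO4 (log2 difference 1.90, SE 0.34, adjusted p = 0.015). Cenpa, the H3 variant of centromeres, read 8.94, 8.52, 8.64, 8.91 and 8.73 on WT1 to WT5 and 10.14, 9.84, 10.61 and 10.51 on KO1 to KO4 (1.56, SE 0.26, adjusted p = 0.0125). On both, the knockout arrays stood above every wildtype array. Macroh2a1 (0.19), Macroh2a2 (0.42) and H2aj (0.23), which are not tied to replication, had no call on their probe sets of highest level (adjusted p 0.282 to 0.522). H2aj had 0.43 on 1440252_at and -0.15 on 1424772_at (adjusted p = 0.333 and 0.613), so its probe sets differed in sign.

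Markers of cell division and of other cell types moved on the same arrays. Each gene was read by its probe set of highest level, and 6.7% of all 14524 genes read this way were higher and 2.78% lower. Of 19 S phase genes 14 were higher and 0 lower (median 0.94), and of 13 G2 and M phase genes 13 were higher (median 1.86). Of 8 markers of thymocytes at the double-positive (CD4 and CD8) stage, 5 were higher (median 1.16), and their mean level ran from 10.13 to 10.62 on wildtype and from 11.32 to 11.93 on knockout arrays. Of 7 tested macrophage and dendritic cell markers 4 were higher (median 1.54, mean level 5.26 to 6.05 against 6.90 to 7.81), with Itgam and Cd14 under the filter. Of 5 B cell markers 2 were higher (median 1.18) and 3 had positive differences, while Pax5 had -0.17 and Ebf1 -0.05, neither called. All 4 measured erythroid genes (Alas2, Klf1, Hba-a1 and Epor) lay under the filter. Of 8 iNKT and T cell markers, Il2rb, Tbx21 and Cd44 were lower and 0 were higher (median -0.29), while Zbtb16, the factor that defines iNKT cells, had no call (-0.22, adjusted p = 0.537). The part of these cells in the histone differences was not tested.

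Of the 14 calls, 13 ended in at least 1 of the 9 fits that left out an array. Without WT2, the 1 wildtype array of batch 2, the difference is taken within batch 1 alone and 2 of the 14 remained called (1455095_at of H2bc21 and the H2A probe set 1438009_at), while the median of the replication-dependent probe sets was 0.92. Without KO3 8 were called, and without any other 1 array 10 to 15. Without the 3 wildtype arrays of batch 3 the differences are the same and 4 were called. Across these and all other settings the histone share of probe sets called higher stayed above that of all probe sets. The nearest were 3.03% (1 of 33) against 0.991% at an adjusted p of 0.01 and 6.06% (2 of 33) against 2.34% without WT2. Those 2 shares thus rest on very few probe sets.

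**Figure D4:**
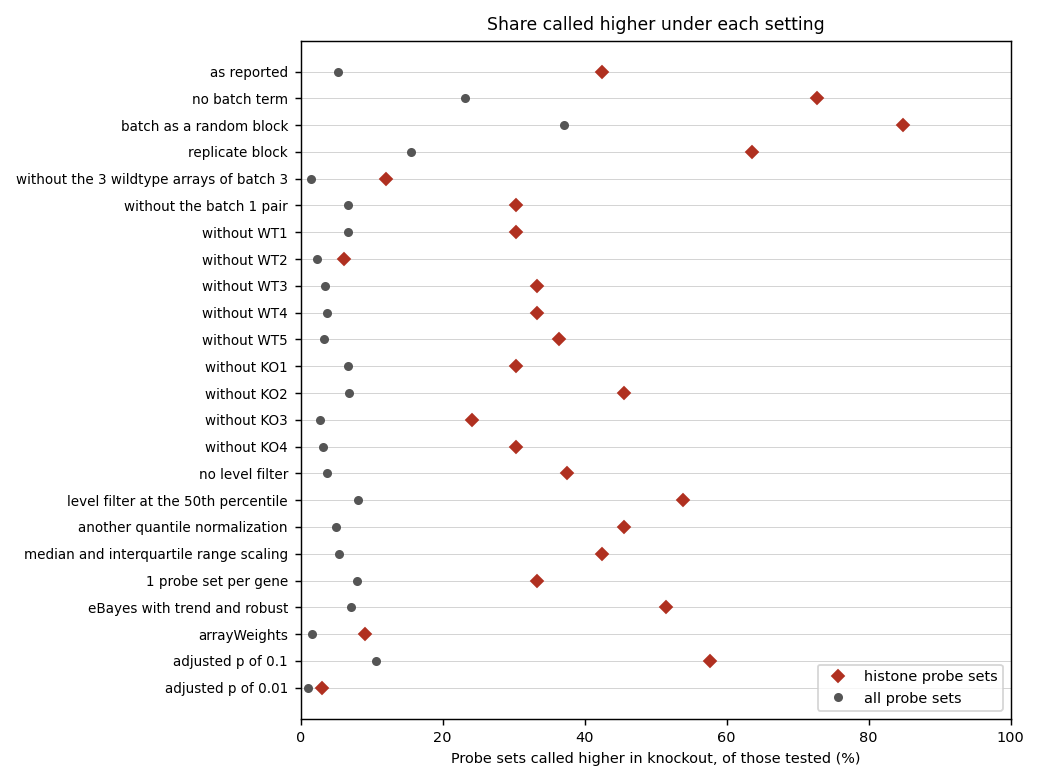
Share of tested probe sets called higher in knockout cells (percent, horizontal axis) among the histone probe sets (red diamonds) and among all probe sets (grey circles) under each setting (rows). The histone share is 42.4% as reported and ranges from 3.03% at an adjusted p of 0.01 to 84.8% with batch as a random block, where 37.1% of all probe sets are called higher. With the random block the correlation estimated within batches was negative (-0.32).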

How the data were processed

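Sorted cells gave total RNA, which was amplified from small amounts as cDNA and labelled with biotin, per the labels' protocols. The authors deposited log2 levels, which they computed with RMA (a background correction with quantile normalization and a summary over the probes), as the submitters' processing notes state without a version. Amplification and summary can compress differences, and the priming of the cDNA, which decides how far mRNAs without a poly(A) tail are copied, is not stated in the labels. Arrays carry no read depth, and their number limits the precision. Levels of different probe sets were compared only to set the filter and to pick the probe set of highest mean for a gene or family.

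Of 45101 probe sets, 34945 name 1 gene in the array's annotation, 932 several and 9160 none, and 64 are controls. All 55 histone genes matched RefSeq by Entrez identifier with the same symbol. The files name no genome build, so coordinates are given only for the promoters, from RefSeq's GRCm38.p6. No array repeated another: between arrays of 1 group, differences had an SD of at least 0.30 (log2).

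Groups and batches came from the titles. The test was limma 3.58.1 in R 4.3.3 (lmFit and eBayes) on all 9 arrays, with genotype and batch (3 levels) as factors, two-sided, with Benjamini-Hochberg adjustment over all 33789 probe sets past the filter. Batches 1 and 2 carry the difference, and batch 3 informs only the spread. Every adjusted p is from this fit or from the stated alternative of it. Motifs and figures were made in Python 3.11.15 (pandas 2.3.3, matplotlib 3.10.9). The fit was also run on simulated data with independent batch shifts and noise. That run lacks the correlated deviations of the deposited values, so it cannot show whether the SEs and p-values here are right.

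Given with every array's value were the 12 called probe sets of smallest p, all variant probe sets, and the replication-dependent probe set of highest mean in each family; of the supply and chaperone lists, up to 6 genes of smallest p, Slbp and Npat. Hira, Daxx, Atrx, Anp32e, Ipo4, Hat1, Rbbp4, Rbbp7, Zbtb16, 1424854_at and the histone probe sets outside the name rule were named, and the levels of Slbp, Asf1b and Chaf1b given, after their values were seen. The histone genes and the lists were chosen with earlier results of these data known. Replicate numbers do not pair the arrays (correlations of the deviations of arrays with the same number: -0.91, 0.08, -0.01 and 0.13). Alternatives covered the batch term, a replicate block, arrays left out, the filter, the normalization, the probe set rule, eBayes options, array weights and the threshold.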

Additional observations from a re-analysis of the deposited data

Results flagged for a closer look

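On the H2bc22 probe set 1427762_x_at, KO4 stood apart from the other knockout arrays: it read 7.72 (log2), and KO1 to KO3 read 7.02 to 7.10. Its gap to the nearest array was 0.887 of the range of the group, above the limit for 4 arrays. In all, 38 groups of arrays on 19 probe sets were examined, and chance gives about 1 such result in 20 groups. KO4 was also the highest knockout array on 12 of the 14 called histone probe sets, and the H2bc22 call held without it.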

How the results depend on the processing

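As reported, 14 histone probe sets were higher and 0 lower, of which 12 replication-dependent and 2 variant, with 4 of the supply list and 4 of the chaperone list called. Without a batch term these counts were 24, 1, 19, 5, 10 and 12, and with batch as a random block 28, 1, 21, 6, 15 and 19. For the random block the correlation estimated within batches was negative (-0.32), where a shift shared by the arrays of a batch would give a positive one. The SEs and p-values of that fit may therefore be off, which was not tested. A replicate block, which pairs arrays by number although the numbers do not pair them, gave 21 higher, 4 variant, 8 supply and 9 chaperone calls. Without the 3 wildtype arrays of batch 3, 4 were higher, all replication-dependent, with 0 variant, 1 supply and 2 chaperone calls, and without the batch 1 pair 1 variant and 2 supply calls. Leaving out 1 array gave 2 to 15 higher (2 to 13 replication-dependent, 0 to 2 variant), 1 to 4 supply and 1 to 4 chaperone calls. With 1 probe set per gene, 5 were higher (4 replication-dependent, 1 variant), fewer being tested. Array weights gave 3 higher, all replication-dependent, 0 variant, 1 supply and 2 chaperone calls, and an adjusted p of 0.01 gave 1, 1, 0, 1 and 2. Variant calls were 4 with a trended, robust eBayes, 4 at an adjusted p of 0.1 and 1 after scaling to a common interquartile range, and chaperone calls 2 after another quantile normalization. H3f3b turned to -0.025 with the replicate block, -0.18 with the quantile normalization and -0.31 with that scaling, and the H2az1 probe sets to -0.11 and -0.14 with that scaling; the cause was not tested. Higher calls made up 62.7% of all calls as reported, 52.7% after the quantile normalization and 46.5% after the scaling. The 13 called probe sets named by the rule kept their direction under all settings tried, several of which repeat a fit (without WT1, KO1 or the batch 1 pair) or leave the difference as it is (the thresholds, the filters and the removal of batch 3).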

Other observations

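Several histone probe sets list another gene ahead of a histone symbol, or carry a histone symbol that the name rule does not cover, and so stand outside the 40. The H2B probe set 1452540_a_at, which names 11 genes with H4bc24 ahead of 10 H2bc symbols, read 8.79, 8.42, 8.52, 8.47 and 8.998 on WT1 to WT5 and 10.61, 10.33, 10.78 and 11.34 on KO1 to KO4. All its knockout arrays were far above all wildtype arrays (4.48-fold, log2 difference 2.16, SE 0.30, adjusted p = 0.00716 by limma). Another H2B probe set, 1425398_at, which names 6 genes, had 1.04 (adjusted p = 0.173). H2aw, an H2A gene of the Hist3 cluster, read 9.19, 8.70, 8.66, 9.22 and 9.05 on WT1 to WT5 and 10.31, 10.15, 10.42 and 10.87 on KO1 to KO4 on 1435866_s_at. The groups did not overlap (2.86-fold, log2 difference 1.51, SE 0.27, adjusted p = 0.0153), and its probe set shared with Trim17 rose as well (1.08, adjusted p = 0.0437), while 1455712_at had 1.62 (adjusted p = 0.067).

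Of 5 probe sets that name both H3.3 genes together with 4 further genes, none was called by limma. Their differences were 0.57, 0.02, 0.05, 0.07 and 0.26 (adjusted p 0.0738 to 0.949). On 1420376_a_at, with the largest of these differences, the levels were 11.40, 11.50, 11.54, 11.34 and 11.53 on WT1 to WT5 and 12.06, 11.85, 11.98 and 12.17 on KO1 to KO4, without overlap of the groups. Of 2 probe sets that name H2az1 with Gm8203, the differences were 0.44 and 0.54 (adjusted p = 0.115 and 0.0992), both again without overlap.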
